A study of Mus musculus with 12 samples.

Results

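The RNA of 9 transcription factors and cofactors of muscle was followed through every array of a MEG3 transfection experiment. They were the MEF2 factors Mef2a, Mef2c and Mef2d, the homeobox factor Six4 with its coactivator Eya1, the TEAD factors Tead1 and Tead4, and the TEAD cofactors Vgll2 and Vgll3. The genes were chosen by name as factors that act beside the muscle bHLH factors. Every probe whose transcript accession belonged to one of these 9 genes was taken, which gave 13 of 39429 probes, for 9 of 20659 genes with a reference symbol.

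MEF2 proteins are MADS-box transcription factors that bind A/T-rich sites and work together with MyoD and myogenin on muscle genes, and class IIa histone deacetylases hold them back. SIX4 binds MEF3 sites and recruits EYA proteins, which are coactivators and phosphatases, upstream of the myogenic bHLH genes. TEAD proteins bind MCAT sites and need a cofactor: YAP and TAZ, the outputs of the Hippo pathway, or one of the vestigial-like (VGLL) proteins, of which VGLL2 is expressed mainly in skeletal muscle. In mouse muscle MEF2A is known to act on the imprinted locus that holds Meg3.

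The cells were C2C12, mouse myoblasts kept as a line and able to fuse into myotubes, grown in medium with fetal bovine serum and collected 72 h after transfection. RNA was measured on 12 single-colour Agilent arrays, 3 in each of 4 groups: siRNA (named in the titles as a MEG3 knockdown), pcDNA3.1-MEG3 (named there as overexpression), pcDNA3.1 and a negative control whose content the labels do not describe. MEG3 is a long non-coding RNA. The siRNA sequence, the presence or absence of an insert in pcDNA3.1 and the origin of the replicates are not given in the labels, so the p-values speak for the spread among these samples alone, and that spread may be technical. Values are log2 processed signals minus the array's 75th percentile, so that a value of 0 is a probe as bright as that percentile, and the levels of different probes cannot be set against each other.

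Replicates 1 and 3 of the siRNA, pcDNA3.1-MEG3 and pcDNA3.1 groups lay at the same slide position and differed by only 0.199 to 0.274 times the spot noise, the spread among repeated spots on an array. Each such pair was averaged and counted as 1 sample, as were replicates 1 and 3 of the negative control, which differed by 1.04 times that noise. Each group therefore held n = 2 samples. Replicates 1 and 2 of pcDNA3.1-MEG3 and of pcDNA3.1 differed by little more (1.13 and 1.06 times) and still counted as 2 samples each, so the groups were not treated evenly. Negative control replicate 2 stood apart from its group, at 4.23 and 3.92 times the spot noise, and results that rest on it are given without it as well. The siRNA, plasmid and negative control arrays were scanned as separate slides, so slide and group cannot be told apart except between the plasmid groups, which shared theirs.

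The targeted RNA, Meg3, was not where the plasmid labels place it. Probe A_51_P455997, the brightest for Meg3, averaged -7.17 ± 0.84 (SD, n = 2) on the arrays labelled pcDNA3.1-MEG3, with 0 of 3 arrays well above background. On those labelled pcDNA3.1 it averaged -2.43 ± 0.07 and was well above background on 3 of 3. Of the siRNA arrays 0 of 3, and of the negative control 1 of 3, were well above background for it, so the knockdown could not be checked. By this probe Meg3 was also higher with pcDNA3.1 than in the negative control (fitted difference 4.26, limma adjusted p = 0.00516). Directions below between the plasmid groups, and of pcDNA3.1 against the negative control, hold for the labels only. The latter are not to be read as effects of a plasmid without insert.

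Between the siRNA and negative control arrays, Vgll2 was the member that differed most: it was bright on every siRNA array and not well above background on any negative control array. Tead1, Tead4 and Six4 were moderately higher with siRNA, Mef2a was lower by its brighter probe, and the dimmer of the Mef2d probes was lower. Of the 12 member probes that could be tested, 5 were higher and 2 lower at a limma adjusted p under 0.05, against 12% of all 29556 probes tested (7.29% higher and 4.73% lower). The arrays labelled pcDNA3.1-MEG3 and pcDNA3.1 differed in 0 of the 12 member probes by that test, against 0.00676% of all 29599 probes. Before adjustment, limma's p was under 0.05 for 3 member probes there (both of Mef2d and 1 of Tead1) and for 3483 of all probes. Meg3 itself did not pass there by A_51_P455997 (-4.74, limma adjusted p = 0.0925), so 0 calls do not show that these groups were alike. Between pcDNA3.1 and the negative control, 3 member probes were higher and 3 lower, against 17.1% of all 29598 probes (10.5% higher and 6.56% lower). Between siRNA and the mean of both plasmid groups, 3 were higher and 1 lower, against 19.3% of all 29552 probes (10.4% higher and 8.89% lower). These comparisons share samples with one another and are not independent. The arrays of the compared groups did not overlap for 9, 7, 10 and 9 of the 12 member probes in the 4 comparisons as listed. Among all tested probes this held for 44.9%, 65.1%, 59% and 50.2%, so groups without overlap, as reported for single members below, were common. The median difference of all probes was 0.05, -0.14, 0.19 and -0.12 in the 4 comparisons as listed, and -0.14, -0.08, -0.25 and 0.11 when arrays were centred on their median instead. With that centring, the share of higher calls among all calls was 38.8% in place of 60.6% for siRNA against the negative control, 18.6% in place of 61.6% for pcDNA3.1 against the negative control, and 77% in place of 53.9% for siRNA against the plasmids. Among the members it gave 3 higher and 2 lower, 1 higher and 5 lower, and 6 higher and 1 lower in these same 3 comparisons. Differences under about this size are therefore relative to the scaling.

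The filter kept probes that were well above background on all arrays of at least 1 group. The Vgll2 probe passed it through the siRNA arrays alone, and the Mef2c probe through the plasmid arrays alone, so the members that passed are not an unselected set. The remaining probe, A_55_P2159885 for Tead1, was well above background on 0 of 3 siRNA, 1 of 3 pcDNA3.1-MEG3, 2 of 3 pcDNA3.1 and 2 of 3 negative control arrays and was not tested.

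**Figure D1:**
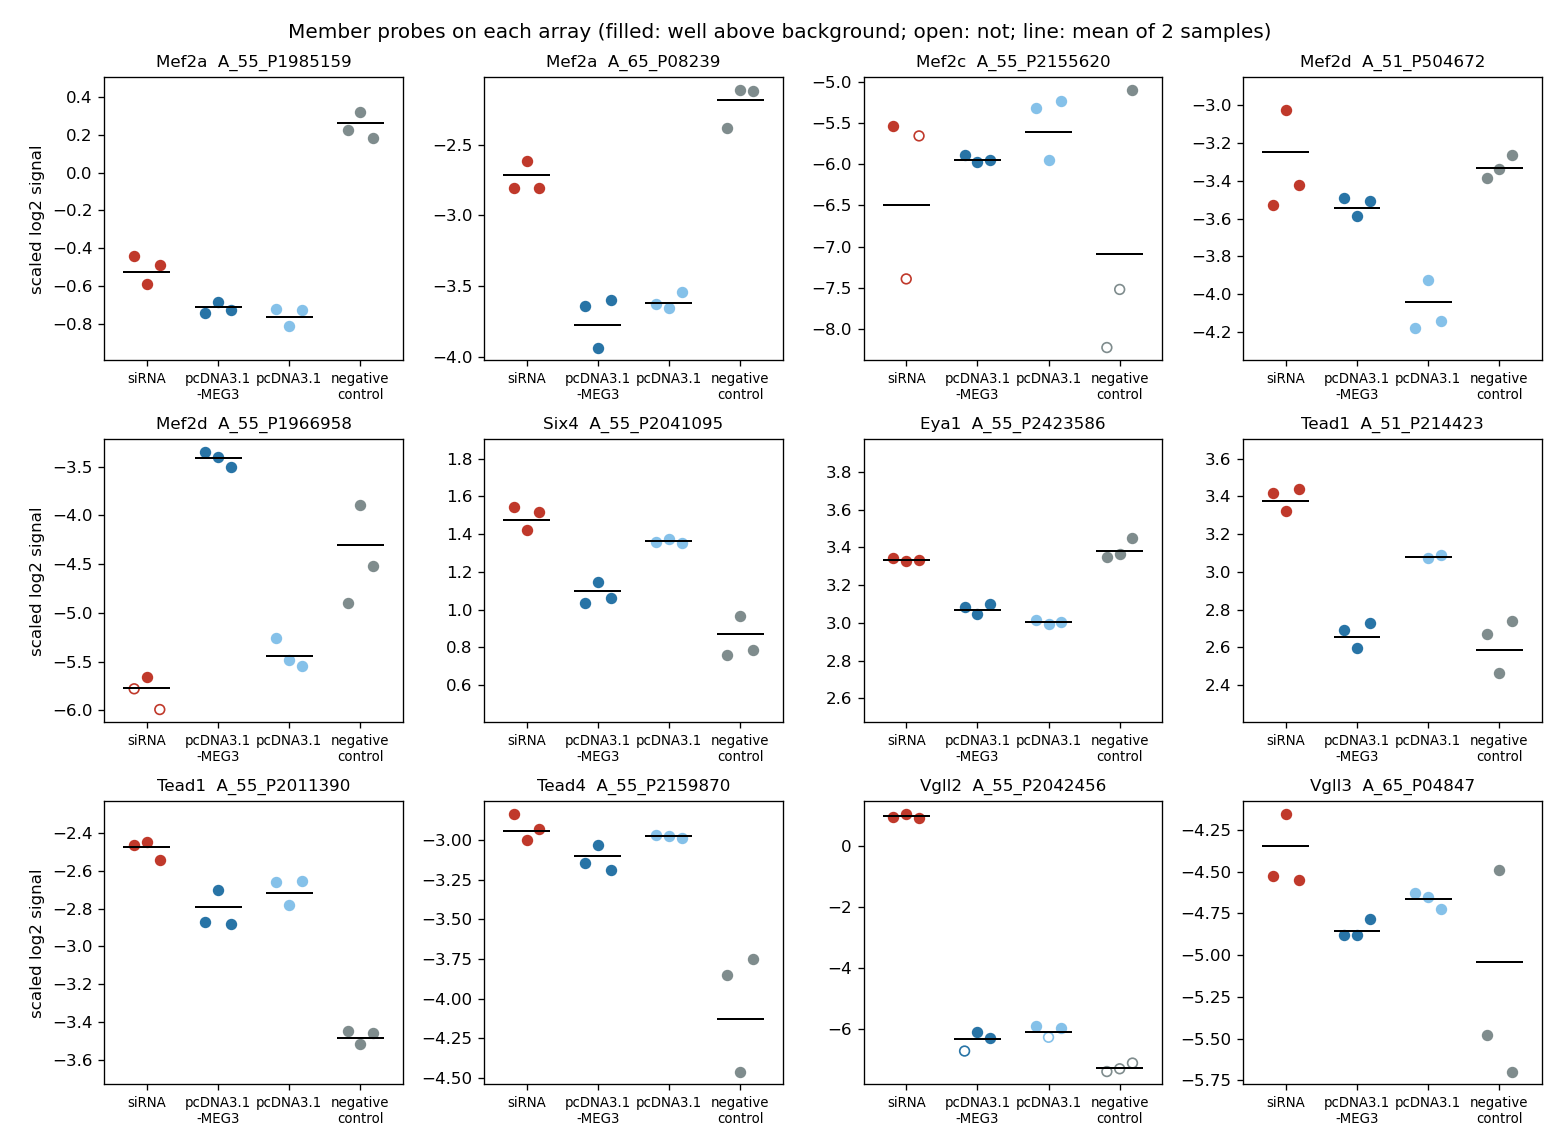
Scaled log2 signal (vertical axis) of the 12 tested member probes on each of the 12 arrays, by group. Filled points were well above background, open points were not, and lines are the means of the 2 samples; the Vgll2 points of the siRNA arrays lie between 0.91 and 1.03 and all others at or below -5.89.

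Vgll2, the muscle vestigial-like cofactor of TEAD, was measured by 1 probe, A_55_P2042456. The window of RefSeq's GRCm38.p6 promoter table at its start site, chr10:52022252-52022551 on the plus strand, is shown because this gene had the greatest change of the set. Capitals mark the E-box letters (CANNTG), which occurred once, 246 bases before the start site.
Vgll2 promoter: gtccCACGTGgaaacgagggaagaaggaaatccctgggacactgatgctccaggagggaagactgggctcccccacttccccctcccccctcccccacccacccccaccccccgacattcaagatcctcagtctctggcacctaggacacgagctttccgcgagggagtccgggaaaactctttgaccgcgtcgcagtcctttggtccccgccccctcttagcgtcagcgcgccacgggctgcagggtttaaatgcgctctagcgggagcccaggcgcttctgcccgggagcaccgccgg
E-box letters occurred in 72.3% of all 32851 promoter windows of that length, on either strand. The MCAT letters CATTCC, the MEF3 letters TCAGGTT and the MEF2 motif were not in this window on either strand. The TATA box letters TATAAA, searched on the strand shown only, were not in it. Among all windows these were present in 14.7%, 4.07%, 3.19% and 8.32%, the last again on the given strand only.

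In siRNA samples Vgll2 had values of 0.92 and 1.03, in pcDNA3.1-MEG3 samples -6.50 and -6.10, in pcDNA3.1 samples -5.92 and -6.26, and in negative control samples -7.24 and -7.29. All 3 siRNA arrays lay far above the other 9, with no overlap. Detection well above background was met on 3 of 3 siRNA, 2 of 3 pcDNA3.1-MEG3, 2 of 3 pcDNA3.1 and 0 of 3 negative control arrays. Because the negative control gives only a bound, Vgll2 was at least 203.2-fold brighter with siRNA than in the negative control (log2 difference of the measured means 8.24, SE 0.20, limma adjusted p = 0.000231). Such a bound sets the siRNA mean against, on each dim array, the probe's own signal or the dimmest signal that counted as well above background there, whichever is higher. Against both plasmid groups the difference was 7.17 (SE 0.17, limma adjusted p = 9.13e-05), a 144.3-fold higher signal, with 4 of 6 plasmid arrays well above background. The test was passed in all 14 alternatives run for the negative control comparison (5.24 to 8.30) and all 15 for the plasmids (4.94 to 7.40).

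A much smaller Vgll2 difference separated pcDNA3.1 from the negative control. It was 1.17 (SE 0.20, limma adjusted p = 0.0164), at least 1.516-fold, and it did not pass without pcDNA3.1 replicates 1 and 3 (1.00, adjusted p = 0.112) or without replicate 2 (1.34, adjusted p = 0.0517). With normexp background correction it was 0.40 and did not pass (adjusted p = 0.269). On the arrays labelled pcDNA3.1-MEG3 it differed from pcDNA3.1 by -0.21 (SE 0.20, limma adjusted p = 0.681).

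Vgll3, a vestigial-like protein that also binds TEAD, had no call in any of the 4 comparisons. Its probe A_65_P04847 gave -4.54 and -4.16 in siRNA samples, -4.83 and -4.88 in pcDNA3.1-MEG3 samples, -4.68 and -4.66 in pcDNA3.1 samples, and -5.59 and -4.49 in negative control samples. The negative control samples were the most widely spread, and their arrays overlapped those with siRNA. The siRNA difference from the negative control was 0.69 (SE 0.36, limma adjusted p = 0.269). Negative control replicate 2 held the high value of that group: without it the difference was 1.24 and passed (limma adjusted p = 0.014), as did that of pcDNA3.1 (0.92, adjusted p = 0.0275).

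Tead1, the TEAD factor first described as TEF-1, was higher with siRNA than in the negative control by both tested probes. By A_51_P214423 it had 3.43 and 3.32 in siRNA samples, 2.71 and 2.60 in pcDNA3.1-MEG3 samples, 3.09 and 3.07 in pcDNA3.1 samples, and 2.71 and 2.47 in negative control samples. The spot of pcDNA3.1 replicate 1 was marked as an outlier, so that sample is replicate 3 alone. The siRNA arrays were the highest and overlapped no other group. The difference from the negative control was 0.79 (SE 0.15, limma adjusted p = 0.0263), a 1.73-fold higher signal, and that from the plasmid groups 0.51 (SE 0.13, limma adjusted p = 0.042).

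By A_55_P2011390 Tead1 had -2.50 and -2.45 in siRNA samples, -2.88 and -2.70 in pcDNA3.1-MEG3 samples, -2.66 and -2.78 in pcDNA3.1 samples, and -3.45 and -3.52 in negative control samples. Here the negative control was the group that stood apart, below all others. The siRNA difference from it was 1.01 (SE 0.14, limma adjusted p = 0.0115), and that of pcDNA3.1 was 0.77 (SE 0.14, limma adjusted p = 0.0196). Between siRNA and the plasmid groups this probe differed by 0.28 (SE 0.12, limma adjusted p = 0.146), in the same direction as the other. Its difference passed with median centring (0.51, adjusted p = 0.0349) and quantile normalisation (0.42, adjusted p = 0.039), and whether the probes differ from each other was not tested.

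Tead4, a TEAD factor of differentiating myoblasts, had -2.88 and -2.999 in siRNA samples, -3.17 and -3.03 in pcDNA3.1-MEG3 samples, -2.98 and -2.97 in pcDNA3.1 samples, and -3.80 and -4.46 in negative control samples. Its arrays in the negative control were below every other array, and the siRNA and plasmid arrays overlapped. The difference from the negative control was 1.19 with siRNA (SE 0.23, limma adjusted p = 0.0304) and 1.16 with pcDNA3.1 (SE 0.23, limma adjusted p = 0.0261). Between siRNA and the plasmid groups it was 0.10 (SE 0.20, limma adjusted p = 0.746). Without negative control replicate 2, the lower of that group, the first 2 differences were 0.86 and 0.83 and still passed (limma adjusted p = 0.00985 and 0.0114).

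The TEAD calls depended in part on single samples and on the scaling. Without siRNA replicates 1 and 3 the siRNA difference from the negative control no longer passed for Tead1 A_51_P214423 (0.74, limma adjusted p = 0.0905) or Tead4 (1.13, adjusted p = 0.0848), while that of A_55_P2011390 passed in 12 of 13 alternatives. Median centring also ended the call of Tead1 A_51_P214423 (0.60, adjusted p = 0.0677), which was lost in 4 of 14 alternatives. Without either pcDNA3.1 sample, pcDNA3.1 no longer differed from the negative control by the test for Tead1 A_55_P2011390 (0.71 and 0.83, adjusted p = 0.139 and 0.0832) or Tead4 (1.16 and 1.15, adjusted p = 0.141 and 0.116). Median centring also ended both calls (0.32 and 0.71, adjusted p = 0.165 and 0.0741), quantile normalisation that of Tead4 (0.76, adjusted p = 0.0589) and normexp that of Tead1 (0.60, adjusted p = 0.0539). The Tead1 call between siRNA and the plasmids was lost without any 1 of the 6 samples (0.45 to 0.56, adjusted p = 0.0943 to 0.165), with normexp (0.44, adjusted p = 0.0616) and with no filter on dim probes (adjusted p = 0.0793).

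Six4, a homeobox factor that acts on early myogenic genes, had 1.53 and 1.42 in siRNA samples, 1.05 and 1.14 in pcDNA3.1-MEG3 samples, 1.36 and 1.37 in pcDNA3.1 samples, and 0.77 and 0.97 in negative control samples. The groups did not overlap. It was 1.52-fold brighter with siRNA than in the negative control (log2 0.61, SE 0.14, limma adjusted p = 0.045). That call was near the threshold: it was lost in 7 of 14 alternatives (0.42 to 0.70), among them median centring (0.42, adjusted p = 0.179), without siRNA replicates 1 and 3 (0.55, adjusted p = 0.149) and without siRNA replicate 2 (0.66, adjusted p = 0.0718). For pcDNA3.1 against the negative control the difference was 0.49 (SE 0.14, limma adjusted p = 0.0618), and it passed without negative control replicates 1 and 3 (0.40, adjusted p = 0.0348) or replicate 2 (0.59, adjusted p = 0.017). With median centring it was 0.047 (adjusted p = 0.857).

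A RefSeq promoter window of Six4, chr12:73113196-73113495 on the minus strand, holds the MEF3 letters, the motif that SIX4 binds, 97 bases before the start site. They are in capitals and read AACCTGA on this strand.
Six4 promoter: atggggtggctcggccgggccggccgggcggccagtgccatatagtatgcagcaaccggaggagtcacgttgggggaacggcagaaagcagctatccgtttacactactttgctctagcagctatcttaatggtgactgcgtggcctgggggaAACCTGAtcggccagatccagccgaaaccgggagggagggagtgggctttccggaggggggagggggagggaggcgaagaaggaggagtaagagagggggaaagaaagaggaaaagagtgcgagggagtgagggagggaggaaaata
The other of the 2 Six4 windows, chr12:73113376-73113675, does not hold the MEF3 letters. MEF3 letters were also found in the first of 3 Mef2c windows, 248 bases before the start site, and were present in 4.07% of all windows.

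Eya1, the phosphatase coactivator of SIX4, had 3.34 and 3.33 in siRNA samples, 3.09 and 3.04 in pcDNA3.1-MEG3 samples, 3.01 and 2.99 in pcDNA3.1 samples, and 3.40 and 3.36 in negative control samples. The plasmid groups were below siRNA and the negative control on every array, and no comparison passed the test. The siRNA difference from the negative control was -0.05 (SE 0.12, limma adjusted p = 0.841), that of pcDNA3.1 was -0.38 (SE 0.12, limma adjusted p = 0.0828), and that of siRNA from the plasmids was 0.30 (SE 0.11, limma adjusted p = 0.0996). The pcDNA3.1 difference passed without negative control replicates 1 and 3 (-0.36, adjusted p = 0.0241) and without replicate 2 (-0.40, adjusted p = 0.0234). Median centring gave -0.83 for it (adjusted p = 0.0149) and 0.53 for siRNA against the plasmids (adjusted p = 0.0318), both past the threshold.

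Mef2a was highest in the negative control by both of its probes. The brighter, A_55_P1985159, had -0.46 and -0.59 in siRNA samples, -0.74 and -0.68 in pcDNA3.1-MEG3 samples, -0.72 and -0.81 in pcDNA3.1 samples, and 0.20 and 0.32 in negative control samples. No array of the other groups reached those of the negative control. With siRNA it was 1.73-fold lower than in the negative control (log2 -0.79, SE 0.13, limma adjusted p = 0.021), and with pcDNA3.1 2.04-fold lower (-1.03, SE 0.13, limma adjusted p = 0.00839).

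By A_65_P08239 Mef2a had -2.81 and -2.62 in siRNA samples, -3.62 and -3.94 in pcDNA3.1-MEG3 samples, -3.59 and -3.65 in pcDNA3.1 samples, and -2.25 and -2.12 in negative control samples. This probe placed siRNA between the plasmid groups and the negative control, with no overlap. The difference of pcDNA3.1 from the negative control was -1.43 (SE 0.17, limma adjusted p = 0.00639), and that of siRNA from the plasmids 0.98 (SE 0.14, limma adjusted p = 0.00888). With siRNA against the negative control it was -0.53 (SE 0.17, limma adjusted p = 0.0982).

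The call of siRNA against the plasmids by this probe held in all 14 alternatives run for it (0.74 to 1.22). By the brighter probe, the same comparison gave 0.21 (SE 0.12, limma adjusted p = 0.224). Both pcDNA3.1 calls were lost without pcDNA3.1 replicates 1 and 3 (-1.07 and -1.47, adjusted p = 0.0698 and 0.0582), and that of the brighter probe also without replicate 2 (-0.99, adjusted p = 0.0586). The siRNA call of the brighter probe was lost without siRNA replicates 1 and 3 (-0.85, adjusted p = 0.056) or without replicate 2 (-0.73, adjusted p = 0.0504).

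The Mef2a promoter window, chr7:67372809-67373108 on the minus strand, is shown because it holds a match to the MEF2 motif, the site bound by the family itself, which begins 2 bases before the start site and runs across it. The match is in capitals.
Mef2a promoter: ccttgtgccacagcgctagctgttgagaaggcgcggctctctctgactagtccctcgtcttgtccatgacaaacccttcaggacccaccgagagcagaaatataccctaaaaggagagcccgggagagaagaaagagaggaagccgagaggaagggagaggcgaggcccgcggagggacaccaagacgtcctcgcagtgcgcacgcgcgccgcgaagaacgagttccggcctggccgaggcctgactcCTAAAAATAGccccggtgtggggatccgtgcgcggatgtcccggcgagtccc
The MEF2 motif was present in 3.19% of all windows, and in none of the other 8 windows found for the members. Windows were found for 6 of the 9 members.

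Mef2d, whose muscle-specific splice form is known to escape inhibitory phosphorylation, had probes that behaved differently. By A_51_P504672 it had -3.48 and -3.02 in siRNA samples, -3.50 and -3.59 in pcDNA3.1-MEG3 samples, -4.16 and -3.93 in pcDNA3.1 samples, and -3.32 and -3.34 in negative control samples. Only the pcDNA3.1 arrays lay apart, below the rest, and no comparison passed the test. The nearest was pcDNA3.1 against the negative control, at -0.71 (SE 0.19, limma adjusted p = 0.0559). It passed in 6 of 14 alternatives, among them median centring (-1.16, adjusted p = 0.0191) and quantile normalisation (-1.10, adjusted p = 0.0251). With those settings siRNA was also higher than the plasmids by this probe (0.78 and 0.75, adjusted p = 0.0367 and 0.0453).

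By A_55_P1966958 Mef2d had -5.89 and -5.66 in siRNA samples, -3.43 and -3.40 in pcDNA3.1-MEG3 samples, -5.40 and -5.49 in pcDNA3.1 samples, and -4.71 and -3.89 in negative control samples. The arrays labelled pcDNA3.1-MEG3 were the highest of all, and the siRNA arrays the lowest, well above background on 1 of 3. The difference between the plasmid labels was 2.03 (SE 0.28), a 4.08-fold higher signal with pcDNA3.1-MEG3, and did not pass (limma adjusted p = 0.134, unadjusted p = 0.000342). It was 1.99 in the slide's first scan (2 arrays per group) and 2.04 in its second (1 array per group), and it passed in 4 of 13 alternatives (0.89 to 2.14, adjusted p = 0.000751 to 0.859). The other Mef2d probe differed the same way by 0.50 (SE 0.19, limma adjusted p = 0.403).

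This dimmer Mef2d probe was lower with siRNA than in the negative control (log2 -1.47, SE 0.28, limma adjusted p = 0.0271) and than in the plasmid groups (-1.34, SE 0.24, limma adjusted p = 0.0158). With pcDNA3.1 it was lower than in the negative control (-1.14, SE 0.28, limma adjusted p = 0.0418). Without siRNA replicates 1 and 3 the first did not pass (-1.36, adjusted p = 0.0767), and without either pcDNA3.1 sample the last did not (-1.18 and -1.10, adjusted p = 0.174 and 0.168). The difference from the plasmids was lost without any 1 of the 4 plasmid samples and without siRNA replicates 1 and 3 (-1.36 to -1.23, adjusted p = 0.0507 to 0.0656). With normexp background correction the differences of siRNA and pcDNA3.1 from the negative control were -0.40 and -0.42 and did not pass (adjusted p = 0.112 and 0.0844), and that of siRNA from the plasmids was -0.43 and passed (adjusted p = 0.0466). Without negative control replicate 2, the higher of that group, the differences of siRNA and pcDNA3.1 from that group were -1.06 and -0.73 and passed (limma adjusted p = 0.00938 and 0.0203).

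Mef2c, the family member required for heart and skeletal muscle differentiation, was dim in every group. Its array values lay between -8.22 and -5.10, both in the negative control. Its probe A_55_P2155620 was well above background on 1 of 3 siRNA, 3 of 3 pcDNA3.1-MEG3, 3 of 3 pcDNA3.1 and 1 of 3 negative control arrays. It had -5.59 and -7.39 in siRNA samples, -5.92 and -5.98 in pcDNA3.1-MEG3 samples, -5.27 and -5.95 in pcDNA3.1 samples, and -6.66 and -7.52 in negative control samples. The 4 groups overlapped, and the siRNA difference from the negative control was 0.60 with a SE of 0.62 (limma adjusted p = 0.593).

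**Figure D2:**
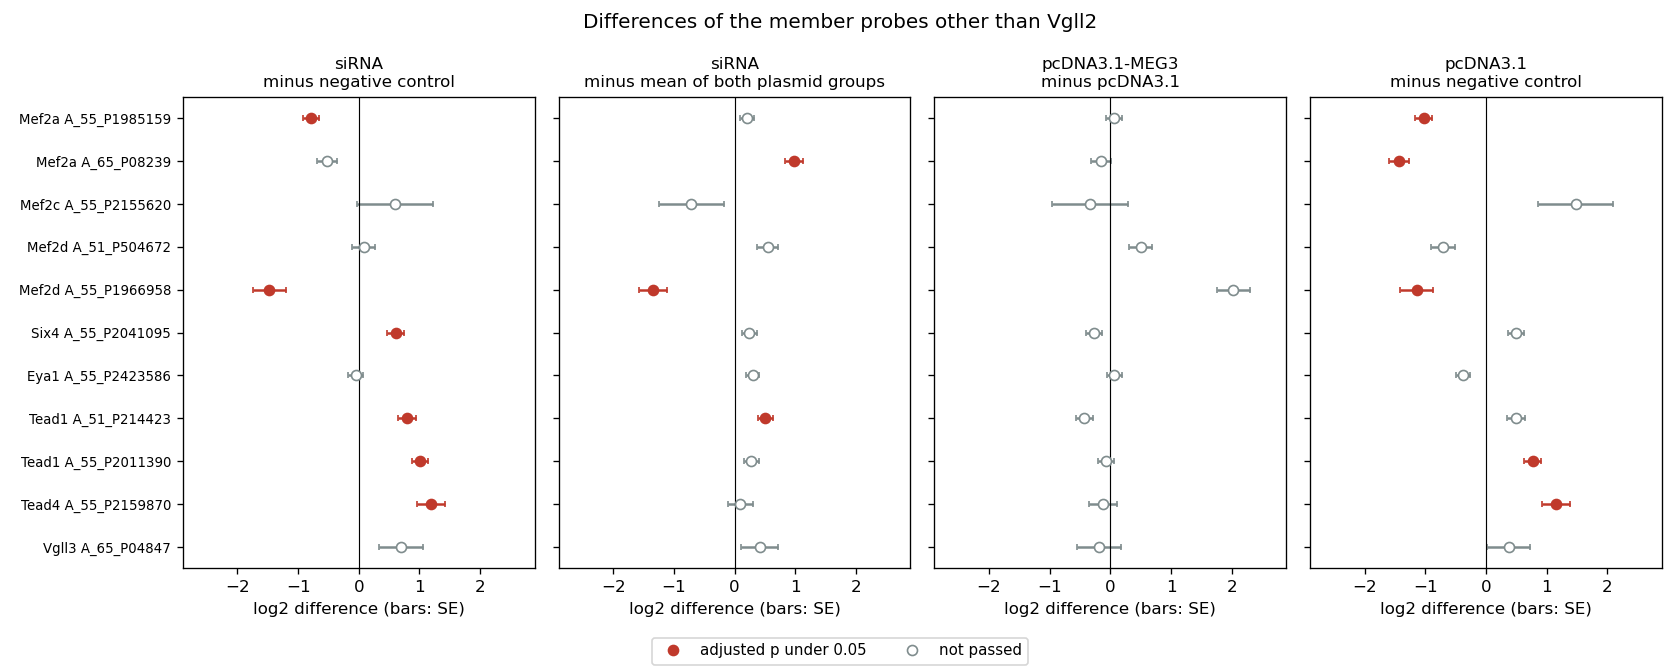
Log2 differences (horizontal axis) with their standard errors (bars) for the 11 tested member probes other than Vgll2, in the 4 comparisons. Filled points passed the limma test; Mef2a A_55_P1985159, Mef2d A_55_P1966958, Tead1 A_55_P2011390 and Tead4 are filled in both the siRNA and the pcDNA3.1 comparison with the negative control, and no point is filled between the plasmid labels.

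Other genes of the same families were followed beside the members. Vgll4, which competes with YAP for TEAD, had a lower fitted value with siRNA than in the negative control (limma adjusted p = 0.0162), but 0 of 3 siRNA and only 2 of 3 negative control arrays were well above background for it, which allows at least 1.598-fold. Six3 did not pass (-1.37, adjusted p = 0.0788). With pcDNA3.1, Eya4 was higher than in the negative control by 0.59 and Vgll4 was lower (at least 1.876-fold). Against the plasmids Mef2b was lower with siRNA (-1.89, limma adjusted p = 0.0499), with 1 of 3 siRNA arrays well above background. Vgll4 also had a lower fitted value there (limma adjusted p = 0.0222). With 0 of 3 siRNA and 0 of 3 pcDNA3.1 arrays well above background for it, its signals allow no statement of a difference.

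Of 10 tested regulators and cofactors of MEF2 (of 11 listed), 1 was higher with siRNA than in the negative control, a share near the 7.29% of all probes. Hdac9, a class IIa deacetylase that is itself a MEF2 target, was 6.21-fold brighter than in the negative control (log2 2.63, SE 0.24, limma adjusted p = 0.0034) and 6.43-fold brighter than in the plasmid groups (2.69, SE 0.21, limma adjusted p = 0.0012). Mapk12, the p38 gamma kinase, differed from the negative control by 0.51 with siRNA (limma adjusted p = 0.0533) and was higher by 0.60 with pcDNA3.1 (limma adjusted p = 0.0294).

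Listed muscle targets of MEF2 were mostly higher with siRNA: 8 of 10 rose and 1 fell against the negative control. The shares of all probes were 7.29% higher and 4.73% lower. The median difference of the 10 was 1.81, beside 0.05 over all probes. Myoz2, a Z-disc protein, was at least 18.49-fold and Srpk3, a muscle kinase, at least 8.789-fold brighter, since 0 of 3 negative control arrays detected either probe above background. Both passed the filter through the siRNA arrays alone, so their place among the 8 is not an unselected result. Myom1, a protein of the M-band, was 5.15-fold brighter (log2 2.37, SE 0.18, limma adjusted p = 0.00215). Smyd1, a muscle histone methyltransferase, was the one that fell (-0.89). Against the plasmid groups 8 rose and 0 fell (median 2.01, beside -0.12 over all probes), with the smallest p for Pgam2, Myoz2 and Srpk3. In that comparison 10.4% of all probes were higher and 8.89% lower. Against the negative control, 2 were higher with pcDNA3.1 (Ckm and Xirp2) and 2 lower (Pgam2 and Smyd1), beside 10.5% and 6.56% of all probes.

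The TEAD side was represented by 12 genes of YAP, TAZ and the Hippo kinases and by 20 tested targets of YAP and TEAD (of 21 listed). Lats2, a Hippo kinase that is also a YAP target, was higher with siRNA than in the negative control (0.73, SE 0.12, limma adjusted p = 0.0218). It was the 1 of 12 called higher, a share near the 7.29% of all probes. Of the 20 targets 4 rose and 0 fell, beside 7.29% and 4.73% of all probes. The median difference of the 20 was 0.45, beside 0.05 over all probes. Ccn2, a matricellular protein, was 4.68-fold brighter (log2 2.23, SE 0.14, limma adjusted p = 0.00107). Ankrd1 rose by 1.32 and Fjx1 by 1.32, and Tgfb2 was the other. Against the plasmid groups 11 rose and 0 fell (median 0.85), beside 10.4% and 8.89% of all probes. Ccn2 was 19.8-fold brighter there (log2 4.30, SE 0.12, limma adjusted p = 9.74e-05), Nt5e 4.35-fold and Tgfb2 2.63-fold. In the Hippo list, Lats2 and Wwtr1 (TAZ) were higher and Mob1b lower in that comparison.

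With pcDNA3.1 against the negative control, 1 YAP and TEAD target rose (Ptpn14) and 6 fell (median -0.30, beside 0.19 over all probes). The shares of all probes were 10.5% higher and 6.56% lower. Ccn2 was 4.10-fold lower (-2.04, SE 0.14, limma adjusted p = 0.00122), Igfbp3 2.66-fold and Nt5e 2.67-fold lower, while Tead1 by 1 probe and Tead4 were higher in the same samples. Stk4 and Mob1b of the Hippo list rose. Between the plasmid labels 0 genes of the MEF2, Hippo and TEAD target lists passed the test, against 0.00676% of all probes.

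**Figure D3:**
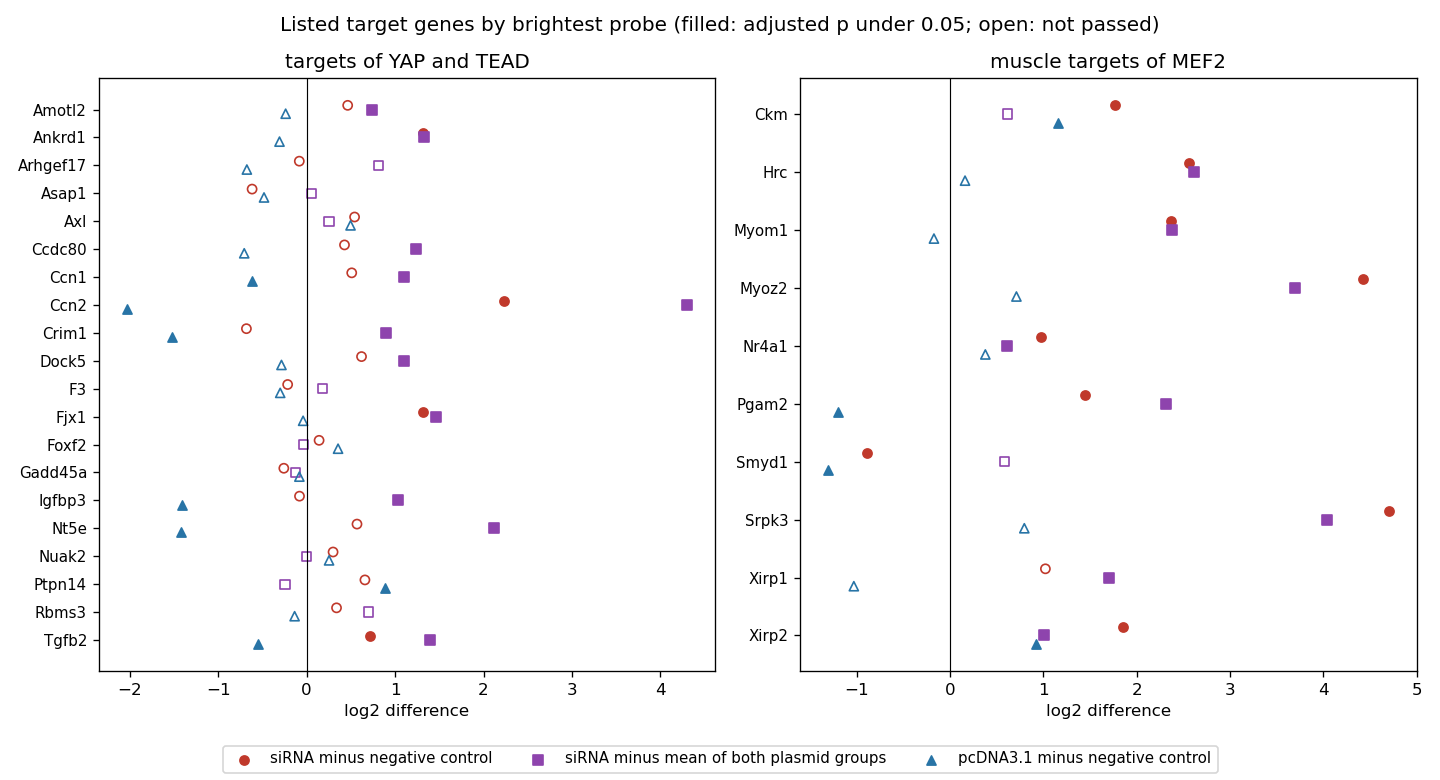
Log2 differences (horizontal axis) of the listed targets of YAP and TEAD and of MEF2, each by its brightest probe, in 3 comparisons; filled symbols passed the limma test. Ccn2 lies at 2.23 and 4.30 with siRNA and at -2.04 with pcDNA3.1, and Myoz2 and Srpk3 lie farthest right in the MEF2 panel.

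Muscle bHLH factors differed in the siRNA samples beside the members. Of 10 E proteins, Id genes and muscle bHLH genes, 4 rose and 1 fell against the negative control, beside 7.29% and 4.73% of all probes. Myf5, the early myoblast factor, fell by 2.87 (SE 0.33, limma adjusted p = 0.00686), Myog rose by 3.46 (SE 0.15, limma adjusted p = 0.000437) and Myf6 by 1.19 (SE 0.15, limma adjusted p = 0.00917). Against the plasmids 6 rose and 0 fell, beside 10.4% and 8.89% of all probes, with the smallest p for Myog, Id2 and Myf6. Myf5 was higher with siRNA in that comparison (1.76, SE 0.29, limma adjusted p = 0.0127). With pcDNA3.1 against the negative control 0 rose, beside 10.5% of all probes, and 3 fell, beside 6.56%. These were Myf5 (at least 19.63-fold, limma adjusted p = 0.00168), Id2 and Id3. The mean of Myf5 was therefore highest in the negative control, and its fall was not particular to siRNA.

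Markers of differentiating myocytes moved with these results. The summed linear signal of Myog, Mymk, Myh3, Actc1 and Ckm, in multiples of the 75th percentile, was 15.4 to 23.6 on siRNA arrays, 1.08 to 1.14 on pcDNA3.1-MEG3 arrays, 0.94 to 1.04 on pcDNA3.1 arrays and 0.574 to 0.657 on negative control arrays. Actc1 counted as well above background on only 2 of 3 siRNA arrays, and a spot marked as an outlier adds nothing to a sum. The low end on siRNA arrays may therefore lack Actc1, and that range is not a spread of the 5-gene signal. All 5 were higher with siRNA than in the negative control by the test, beside 7.29% of all probes. The 5 myoblast markers of the labelled cell type (Myod1, Des, Cdh15, Itga7 and Chrna1) were well above background on all arrays of every group and summed to 55 to 57.1 on siRNA, 22.2 to 23.7 on pcDNA3.1-MEG3, 25.5 to 25.7 on pcDNA3.1 and 23.7 to 25.7 on negative control arrays. Such a sum follows its brightest probes, here Chrna1 (siRNA mean 5.05) and Itga7 (4.26). By the test 4 of the 5 were higher with siRNA than in the negative control. Des was not (-0.22, limma adjusted p = 0.815), and its mean was higher with pcDNA3.1-MEG3 (-2.055) than with siRNA (-2.996). Fewer cells of a type and less RNA per cell cannot be told apart in such samples.

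Of the markers of other cells, the neural, adipocyte and blood sums were higher on every siRNA array than on any other. The neural sum was 1.64 to 1.69 on siRNA arrays and 0.741 to 1.25 on all others, with Nefl, Map2 and Tubb3 higher and Snap25 lower with siRNA than in the negative control. Fibroblast markers summed to 49.1 to 53 on siRNA arrays, 77.9 to 83.2 with pcDNA3.1-MEG3, 86.3 to 89 with pcDNA3.1 and 51.4 to 67.5 in the negative control. Of the 4 tested, 1 was lower with siRNA than in the plasmid groups by the test and 0 were higher. It was Ly6a (-1.34, limma adjusted p = 0.0013). Pdgfrb had a higher mean with siRNA (4.43) than in both plasmid groups (3.74 and 3.87). Adipocyte markers summed to 0.352 to 0.375 on siRNA arrays and 0.214 to 0.292 on all others, but the single markers did not move together. Cidec was higher with siRNA than in the negative control by the test, yet its siRNA mean (-4.09) was below both plasmid means (-3.62 and -3.52). Fabp4 had its highest mean with siRNA (-1.85), and its difference from the negative control was 0.67 (limma adjusted p = 0.103). Adipoq and Plin1 had lower fitted values with siRNA than in the negative control (-1.08 and -1.14) and did not pass. Blood and macrophage markers summed to 0.608 to 0.639 on siRNA arrays and 0.342 to 0.483 on all others, with Csf1r higher and Lyz2 lower with siRNA than in the negative control. Endothelial markers summed to 0.945 to 1.32 on siRNA arrays and 0.896 to 1.36 on all others. Adipoq, Lep, Lyz2, Tcf21, Tek and Tie1 were well above background on no siRNA array. The part of any of these in the members' differences was not tested.

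Genes with the most similar course over the 8 samples were taken for members whose group means spanned at least 1 log2. For Vgll2 they were Armcx4, Mb (myoglobin) and Abca13 (Pearson's r = 0.998, 0.997 and 0.997), for Tead4 Bcl6, Larp1 and Cask (0.993, 0.993 and 0.992), for Mef2a Serpinb1c, Pcolce2 and Ctla2b (0.991, 0.989 and 0.987), and for the dim Mef2c probe Cyp2g1, Serpina9 and Vmn1r74 (0.993, 0.991 and 0.989). The points share 4 groups and their slides, so these are descriptions of the samples.

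**Figure D4:**
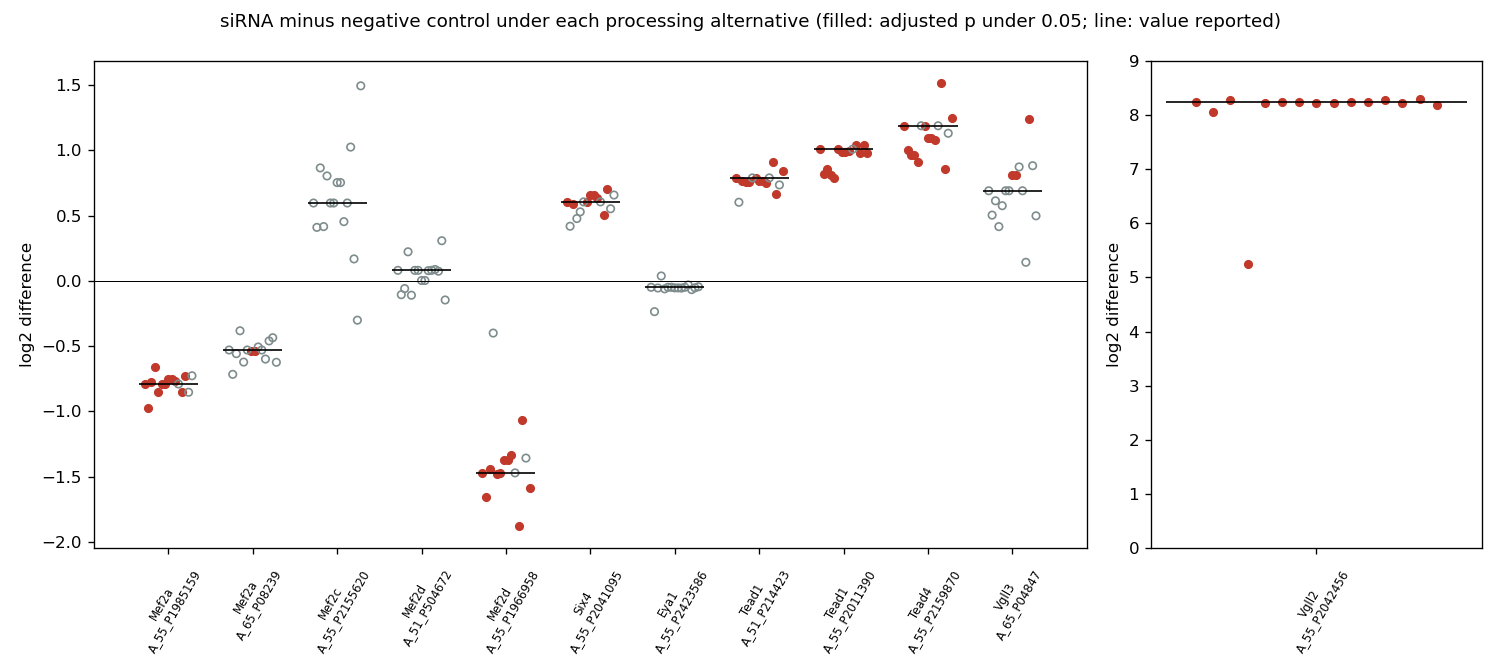
Log2 difference of siRNA from the negative control (vertical axis) for each member probe under every processing alternative, with Vgll2 on its own axis. Filled points passed the limma test and lines are the values reported; Vgll2 stays between 5.24 and 8.30 and is filled throughout, and Six4 is open in 7 of 14 alternatives.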

How the data were processed

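The deposited scanner files hold spot intensity on a linear scale, from which Agilent Feature Extraction 11.0.1.1 had subtracted background without scaling arrays to each other, per the file headers. Further columns are spot flags. The authors' deposited series table holds intensity values of unstated scale, and served as an alternative. The 1377 control spots of 44397 per array and outlying spots were left out (0 were saturated), spots of a probe were averaged, and log2 signals were scaled to each array's 75th percentile, which lay between 1168 and 2266. Probes were kept if all arrays of some group had them well above background (29607 of 39429). An array held 24125 to 29900 such probes, and the number of arrays limits the precision. Accessions were matched to RefSeq, which named 27234 probes; the other 12195 kept the files' names. That annotation is of a later build than the array files, so it gave names only.

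All 8 samples entered 1 limma 3.58.1 fit in R 4.3.3 with the package data.table, version 1.17.8 (lmFit and eBayes, two-sided, 4 residual and 1.91 prior degrees of freedom, Benjamini-Hochberg over all probes tested, called under 0.05). The procedure was tested on simulated data. Same-numbered arrays of different groups did not deviate together (r between -0.0345 and 0.0102), so replicate numbers do not pair samples. The members, the lists and the tests were chosen with earlier results of these data known. All member probes are named. Of each list, the 3 genes with the smallest p per comparison were to be named where any was called, each by its brightest probe. That was not done in full, and some of those genes are left out. One gene of the family list, and the counts of that list that include it, are not reported here. Other names were chosen after their values were seen. Alternatives changed the scaling, background correction, filter, probe choice, counting of samples, blocks and the samples included.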

Additional observations from a re-analysis of the deposited data

How the results depend on the processing

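The members' differences kept their direction and their side of the threshold in 543 of 672 repeats under other settings; 57 lost a call, 58 gained one and 14 changed sign, all of the last among differences without a call. Sign changed for Mef2d A_51_P504672 with siRNA against the negative control (-0.11 with median centring, -0.059 with quantile normalisation, -0.11 in the authors' table, and -0.15 to 0.31 leaving out 1 sample, lowest without siRNA replicate 2) and for Vgll3 with pcDNA3.1 against the negative control (-0.074, -0.035 and -0.038 under the same settings, and -0.18 to 0.92, lowest without negative control replicates 1 and 3). Leaving out 1 sample moved Mef2c between -0.30 and 1.496 (siRNA against the negative control), -0.68 and 0.0027 (between the plasmid labels), and -1.61 and 0.19 (siRNA against the plasmids, 0.0061 with normexp). It moved Tead1 A_55_P2011390 between -0.16 and 0.0146 (between the plasmid labels). Eya1 with siRNA against the negative control was 0.038 with normexp. The cause was not tested.

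In counts of calls, median centring gave 7 member probes for siRNA against the plasmids. Normexp, applied to the median spot signal in place of the planned mean signal and chosen after seeing the files, gave 22 probes between the plasmid labels and 3 member probes for pcDNA3.1 against the negative control. With no filter on dim probes, siRNA against the negative control had 2263 probes and 4 member probes. Counting all 12 arrays as samples, which takes rescans for replicates, gave 11926, 4379, 14345 and 15411 probes in the 4 comparisons (siRNA against the negative control, between the plasmid labels, pcDNA3.1 against the negative control, siRNA against the plasmids) and 4, 10 and 9 member probes in the last 3. Although the numbers do not pair the samples, the same count with the replicate block gave 11239, 3457, 13616 and 14921 probes, and 3, 10 and 9 member probes. With the scan as a block, 1726 probes and 1 member probe passed between the plasmid labels. Keeping 9 samples, chosen after seeing the data, gave 5808 probes for siRNA and 7716 for pcDNA3.1 against the negative control, with 10 member probes in the second.

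Fitting the compared groups alone, with fewer samples for the spread, gave 188 probes and 1 member probe (Vgll2) for siRNA against the negative control, 3694 and 1 between the plasmid labels, 3 member probes for pcDNA3.1 against the negative control and 11730 probes for siRNA against the plasmids. Leaving out 1 sample at a time gave 2130 to 9249 probes and 2 to 8 member probes for siRNA against the negative control, 0 and 0 between the plasmid labels, 634 to 11234 and 0 to 9 for pcDNA3.1 against the negative control, and 1982 to 5634 and 2 to 4 for siRNA against the plasmids. A group left with 1 sample was assumed to vary like the others. Signal near background limited Vgll2 outside siRNA, Mef2c, and the dimmer Mef2d probe with siRNA.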
